A study of Mus musculus with 12 samples.

Results

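Mature B cells are recognised by a small set of genes that they transcribe together, and 9 of these, Ms4a1, Cd79a, Cd79b, Pax5, Tnfrsf13c, Pou2af1, Cr2, Fcer2a and Blk, were followed here through mouse small intestine. They were chosen by name as textbook genes of B cell identity, and 9 of 9 were found among the 17175 genes of the table. In mm10 each lies on a chromosome of its own: Cr2 on 1, Pax5 on 4, Cd79a on 7, Fcer2a on 8, Pou2af1 on 9, Cd79b on 11, Blk on 14, Tnfrsf13c on 15 and Ms4a1 on 19. The libraries came from proximal or distal small intestine, from mice that were either wild-type (WT) or Bmpr1a cKO, and made 4 groups of 3: WT proximal, WT distal, cKO proximal and cKO distal. The Bmpr1a product is a receptor that binds bone morphogenetic proteins (BMPs), and the series concerns BMP signalling in the epithelium and the length of villi along the intestine. The Cre driver, floxed allele, age, sex and strain of the mice are not given in the sources used here, nor is the layer of the wall that was taken. No treatment is named for any group. Replicate numbers are shared by the proximal and distal samples of a genotype, but nothing says that the 3 numbers are 3 animals, so p-values measure only how far these samples spread, and that spread may be technical.

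B cells carry an antigen receptor whose membrane immunoglobulin signals through the CD79A and CD79B chains. Their fate is held by transcription factors such as PAX5, and mature B cells survive on the cytokine BAFF, bound by the receptor that Tnfrsf13c encodes. In the small intestine most naive B cells sit in Peyer's patches and isolated lymphoid follicles, where they form follicles and germinal centres, while the plasma cells that descend from them lie in the lamina propria of the villi.

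Each library held between 11242024 and 17722756 reads in genes. Reads of mitochondrially encoded genes made up between 9.75% and 37.7% of a library. Values below are the authors' scaled read counts, each equal to the read count plus 1 divided by a size factor of the library. The epithelial genes Epcam, Vil1 and Cdh1 had reads in 12 of 12 libraries, with Vil1 between 25442 and 59564. Bmpr1a itself differed by 0.01 on the log2 scale between cKO and WT in the proximal segment (adjusted p = 0.983) and by 0.06 in the distal segment (adjusted p = 0.852). Reads counted over the whole gene do not check a deletion of part of it. Over 4 Y-linked genes (Eif2s3y, Kdm5d, Uty and Ddx3y) both cKO libraries numbered 1 had 0 reads, and the other 10 libraries had 1251 to 2390. By this RNA the cKO samples numbered 1 differed in sex from the other samples, and sex was not in the main fit.

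The stretches just upstream of 3 members are shown because they hold a motif that was found before several members. Whether it bears on their RNA was not tested. RefSeq promoters (GRCm38.p6) were found for 6 of the 9 genes: Cd79a, Pax5, Tnfrsf13c, Pou2af1, Cr2 and Fcer2a, the last with several starts. The 250 bases before each start were searched on both strands for 4 motifs, kept after the matches of a longer set had been looked at. Capitals mark matches to an E-box, CAGGTG or its reverse complement, and in Cd79a also to the PU.1 core GAGGAA, read on the other strand. Each is printed 5′ to 3′ on the strand of its gene. The Cd79a stretch, chr7:24897247-24897380 on the plus strand, ends where the GENCODE gene begins. The others, chr15:82224381-82224630 for Tnfrsf13c and chr1:195176720-195176969 for Cr2, are on the minus strand and lie upstream of the whole gene.
Cd79a: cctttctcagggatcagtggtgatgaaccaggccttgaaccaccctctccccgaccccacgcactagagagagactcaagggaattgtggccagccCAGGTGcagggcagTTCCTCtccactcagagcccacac
Tnfrsf13c: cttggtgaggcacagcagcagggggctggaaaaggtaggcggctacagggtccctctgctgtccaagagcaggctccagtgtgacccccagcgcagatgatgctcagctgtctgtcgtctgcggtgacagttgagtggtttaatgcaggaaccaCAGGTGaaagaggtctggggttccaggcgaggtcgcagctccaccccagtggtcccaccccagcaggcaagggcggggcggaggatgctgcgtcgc
Cr2: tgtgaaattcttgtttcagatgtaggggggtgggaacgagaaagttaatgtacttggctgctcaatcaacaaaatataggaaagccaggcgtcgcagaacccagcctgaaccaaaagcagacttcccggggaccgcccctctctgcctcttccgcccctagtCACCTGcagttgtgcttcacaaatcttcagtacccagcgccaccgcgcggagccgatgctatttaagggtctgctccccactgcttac
The 6 genes had 8 promoters. The E-box was found in 4 of the 8 (1 each of Cd79a, Cr2, Fcer2a and Tnfrsf13c) and in 17.2% of the 32851 promoters of the table. The PU.1 core was found in 1 of the 8 (Cd79a) and in 23.3% of promoters. The octamer ATGCAAAT, the element bound with the coactivator that Pou2af1 encodes, was found in 0 of the 8 and in 1.6% of promoters. The EBF1 core CCCNNGGG was found in 0 of the 8 and in 11.8%. None of these motifs overlapped another in a member. Because the motifs were kept after their matches were seen, these counts and shares are a description and no test. A match is a stretch of letters and was not tested as a binding site.

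In the distal segment, RNA of the B cell identity genes was lower in the cKO by between 33.0-fold (Cd79b) and 85.1-fold (Fcer2a), as ratios of group means, and all 9 passed the test. Of all genes, 25% passed in this comparison, and 11.7% passed with lower values in the cKO. The receptor chains come first. Cd79a, a signalling chain of the B cell receptor, stood at 1442, 4243 and 2976 scaled counts in WT distal libraries 1, 2 and 3, and at 65.7, 34.0 and 108 in cKO distal libraries 1, 2 and 3. Cd79b, its partner chain, read 1033, 3076 and 1900 in WT against 63.6, 29.0 and 89.3 in the cKO. The lowest WT distal library was 13.3 times the highest cKO distal one for Cd79a and 11.6 times for Cd79b. Cd79a fell by 5.37 on the log2 scale (SE 0.63, adjusted p = 6.22e-05) and Cd79b fell by 5.02 (SE 0.57, adjusted p = 5.46e-05). Blk, a Src-family kinase of B cells that acts at the receptor, read 414, 1118 and 686 in WT and 12.7, 7.47 and 17.0 in the cKO. It fell by 5.74 (SE 0.57, adjusted p = 2.30e-05).

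Of the nuclear factors, Pax5, which commits lymphoid progenitors to the B lineage, stood at 907, 2506 and 1643 in WT distal libraries 1, 2 and 3 and at 30.7, 12.4 and 57.4 in the cKO distal ones. Pou2af1, a coactivator of octamer-binding factors, read 1561, 2668 and 1679 in WT against 37.1, 19.9 and 73.4 in the cKO. The groups did not overlap for either gene. Pax5 fell by 5.73 (SE 0.70, adjusted p = 7.73e-05). Pou2af1 fell by 5.62 (SE 0.49, adjusted p = 1.28e-05), the smallest adjusted p of the 9. The exons of Pax5 share 7.18% of their bases with the opposite-strand gene 5730488B01Rik and 1.41% with Gm12462, and reads of overlapping genes cannot be told apart without strand. No other member shared exon bases with another gene.

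Among the surface receptors, Ms4a1, which encodes CD20, stood at 1141, 2948 and 1853 in WT distal libraries 1, 2 and 3 and at 24.4, 23.2 and 59.5 in the cKO distal ones. Tnfrsf13c, the BAFF receptor, read 547, 1303 and 911 in WT against 19.1, 14.1 and 17.0 in the cKO. Ms4a1 fell by 5.79 (SE 0.59, adjusted p = 2.82e-05) and Tnfrsf13c fell by 5.62 (SE 0.56, adjusted p = 2.30e-05). Cr2, a complement receptor that follicular dendritic cells also make, read 242, 1672 and 887 in WT against 18.0, 6.64 and 47.8 in the cKO. Fcer2a, which encodes CD23, the low-affinity IgE receptor of follicular B cells, read 231, 1318 and 810 in WT against 10.6, 3.32 and 13.8 in the cKO. These members varied most among the WT distal libraries, library 2 reading 6.90 times library 1 for Cr2 and 5.70 times for Fcer2a. Cr2 fell by 5.21 (SE 0.84, adjusted p = 0.00062) and Fcer2a fell by 6.12 (SE 0.80, adjusted p = 0.000123). The lowest Fcer2a value in the cKO rested on 3 reads, and log2 changes of such low values are understated by the added count.

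**Figure D1:**
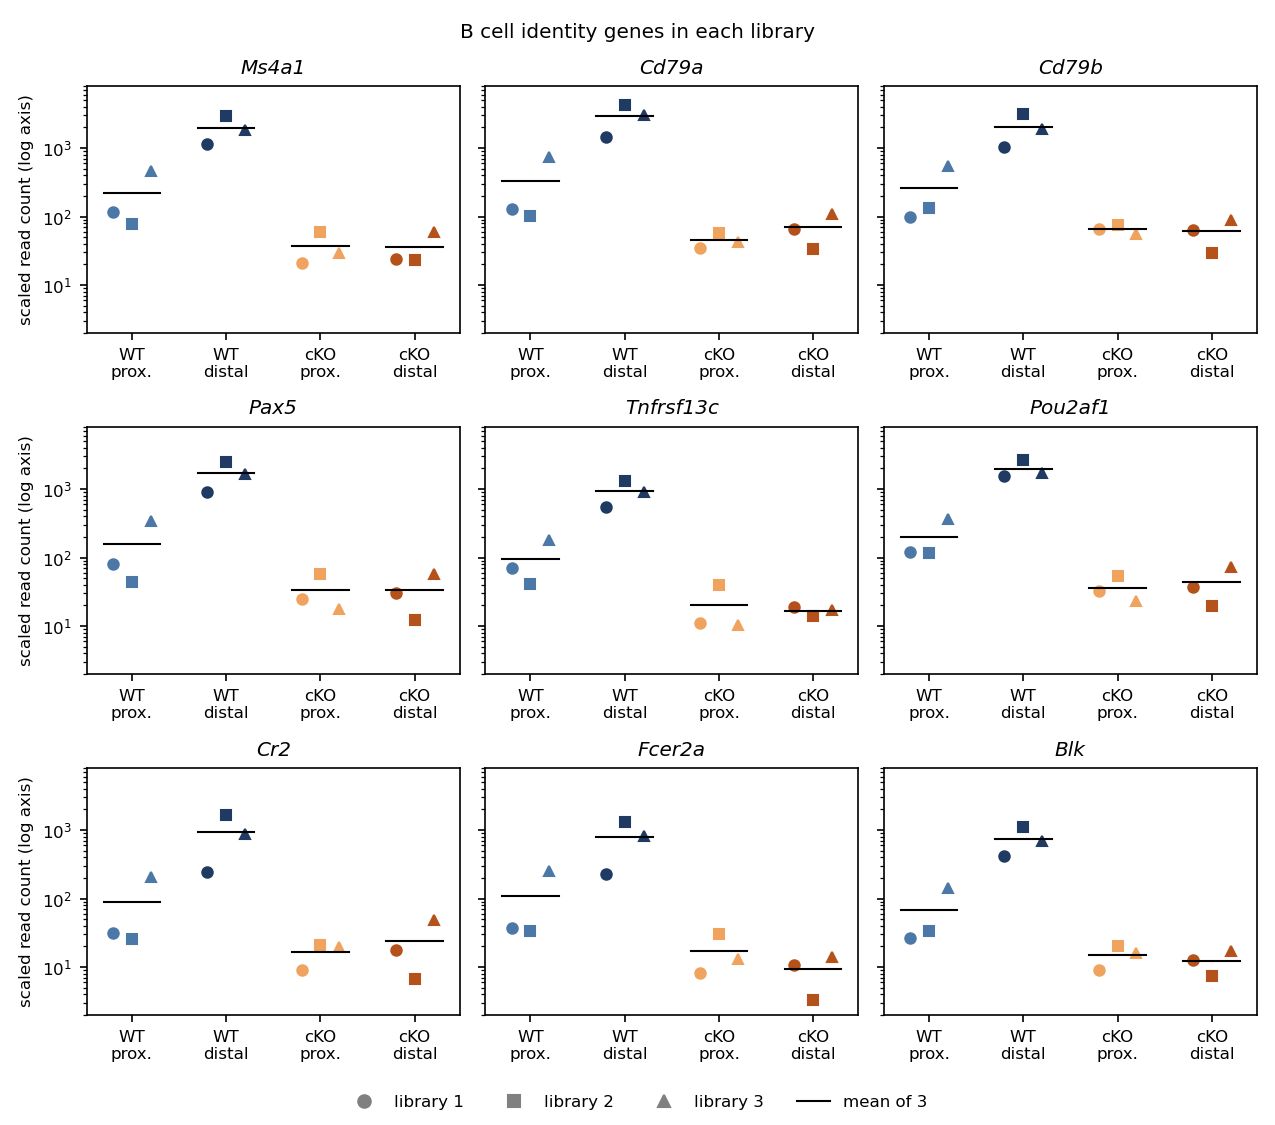
Scaled read counts (log axis) of the 9 B cell identity genes in each of the 12 libraries. Each point is 1 library, its shape gives the replicate number, and the bar is the mean of 3. In each panel the 3 WT distal libraries are above the 6 cKO libraries, and WT proximal library 3 is the highest of its group.

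For 9 of 9 genes every WT distal library was above every cKO distal library, where 15.9% of all genes were separated in that direction. The median log2 difference was -5.62 over the 9 genes and 0.06 over all genes. The gap between the lowest WT and the highest cKO library was smallest for Cr2, 5.06-fold, and largest for Tnfrsf13c, 28.7-fold. In bulk tissue, fewer B cells and less of these RNAs per B cell cannot be told apart. Nor can a difference in how much Peyer's patch or lymphoid follicle the sampled pieces held. The share of mitochondrial reads was also lower in the cKO distal libraries (9.95% to 27.7%) than in the WT distal ones (22.3% to 37.7%), with overlap. With that share in the model, 9 of 9 members were still called lower, and they were so without both cKO libraries numbered 1.

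The proximal segment held less of this RNA to begin with, and there the cKO was lower by between 3.97-fold (Cd79b) and 7.23-fold (Cd79a) as ratios of means. By the test, 4 of the 9 fell, where 8.26% of all genes passed and 4.05% passed with lower values in the cKO. Cd79a stood at 129, 101 and 749 scaled counts in WT proximal libraries 1, 2 and 3 and at 34.3, 58.3 and 42.9 in the cKO proximal ones. It fell by 2.25 on the log2 scale (SE 0.63, adjusted p = 0.0432). Ms4a1 read 118, 78.6 and 464 in WT against 21.2, 59.3 and 29.8 in the cKO. WT library 3 was far above libraries 1 and 2 for both genes, and no WT library was as low as a cKO one. Ms4a1 fell by 2.25 (SE 0.59, adjusted p = 0.0343). Pou2af1, at 119, 116 and 360.0 in WT and 32.3, 53.0 and 23.3 in the cKO, had the clearest separation and fell by 2.28 (SE 0.49, adjusted p = 0.0140). Tnfrsf13c read 69.5, 40.4 and 178 in WT against 11.1, 40.3 and 10.3 in the cKO, so that WT library 2 and cKO library 2 were nearly equal. It fell by 2.18 (SE 0.56, adjusted p = 0.0295).

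The other 5 members did not pass in the proximal segment, although their estimates lay on the same side of zero. Blk differed by -1.74 on the log2 scale (adjusted p = 0.0751), Cd79b by -1.55 (adjusted p = 0.109) and Fcer2a by -2.12 (adjusted p = 0.118). Pax5 differed by -1.81 (adjusted p = 0.125) and Cr2 by -1.77 (adjusted p = 0.209, 95% interval -3.57 to 0.04). Pax5 was the 1 member whose groups overlapped, with 58.3 in cKO proximal library 2 against 43.8 in WT proximal library 2. The groups did not overlap for the other 8, where 13.3% of all genes were separated with the cKO lower.

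WT proximal library 3 was the highest of its group for 9 of 9 members, at 3.07 times (Pou2af1) to 7.19 times (Cr2) the mean of libraries 1 and 2. Without it 0 of 9 members were called in the proximal segment, and 0 of 9 without cKO proximal library 3. The count was also 0 with the mitochondrial share as a covariate, a share of 17.4% to 26.0% in the WT proximal libraries and 9.75% to 14.8% in the cKO proximal ones.

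Within the WT, the members were higher in the distal than in the proximal segment by between 7.33-fold (Fcer2a) and 11.0-fold (Blk), as ratios of means. All 9 passed, where 24.1% of all genes passed and 11.9% passed with higher distal values. The log2 differences ran from 3.18 for Fcer2a (SE 0.80, adjusted p = 0.0103) to 3.85 for Pax5 (SE 0.70, adjusted p = 0.00139), with a median of 3.49 against 0.04 over all genes. Pou2af1 had the smallest adjusted p, at 3.48 (SE 0.49, adjusted p = 0.000237). The distal libraries lay above the proximal ones for 8 of 9 members, where 19.2% of all genes were separated in that direction. The exception was Fcer2a, at 231 in WT distal library 1 and 251 in WT proximal library 3. Fcer2a was also the 1 member not called without WT distal library 2, with a log2 difference of 2.65 and an adjusted p of 0.0613.

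In the cKO, none of the 9 passed between the segments, where 10.5% of all genes did. By limma 0 of 9 had an unadjusted p under 0.05, and edgeR and DESeq2 likewise called 0 of 9. The estimates lay on both sides of zero, from -0.82 for Fcer2a (95% interval -2.53 to 0.90) to 0.49 for Cd79a (95% interval -0.87 to 1.85). These intervals are wide and do not show that the segments were alike. Cd79a stood at 34.3, 58.3 and 42.9 in the proximal and 65.7, 34.0 and 108 in the distal cKO libraries.

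**Figure D2:**
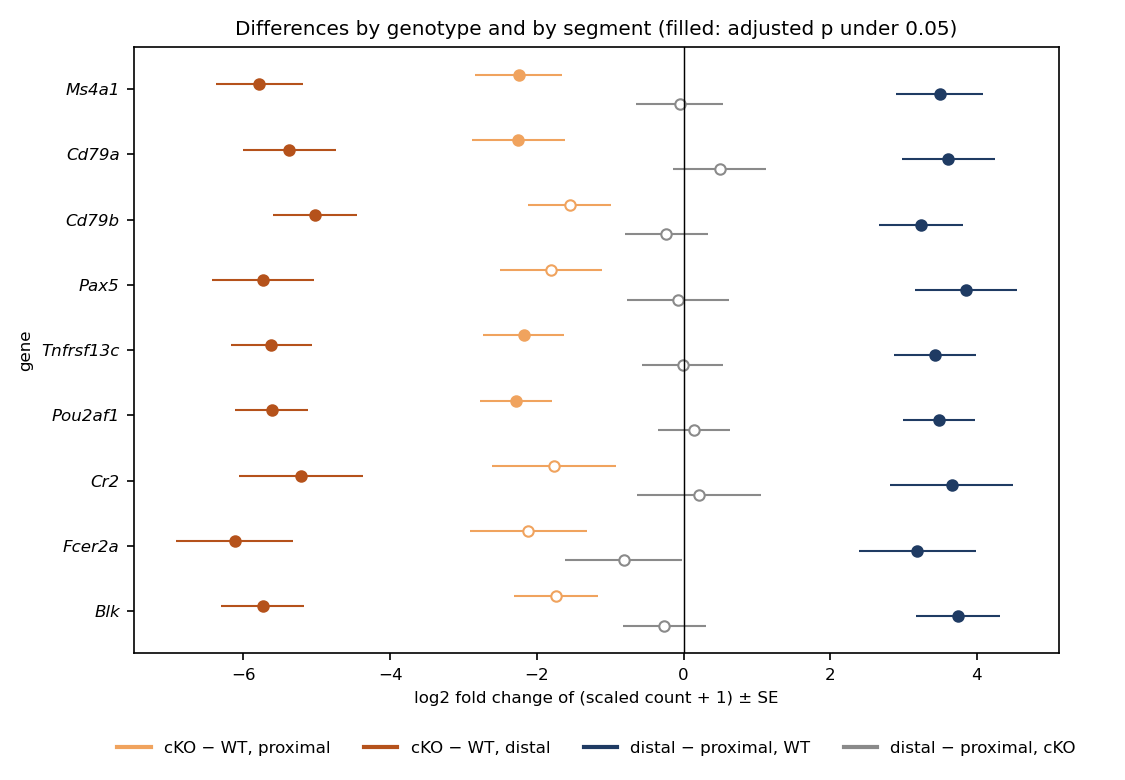
Log2 fold changes of the 9 genes with their standard errors for 4 comparisons, from 1 limma fit on log2(scaled count + 1). Filled points passed an adjusted p of 0.05. The distal genotype differences lie between -6.12 and -5.02, the proximal ones between -2.28 and -1.55, and the segment differences in the cKO lie around zero.

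The difference of the 2 genotype effects, distal minus proximal, was tested as an interaction. Estimates ran from -3.999 (Fcer2a) to -3.12 (Cd79a) on the log2 scale, with a median of -3.47. Blk passed, at -3.998 (SE 0.81, adjusted p = 0.0442), and was the 1 of 9 to do so, where 0.576% of all genes passed and 0.402% passed with lower values. Pou2af1 stood just beyond the threshold at -3.33 (SE 0.70, adjusted p = 0.0508), and the other 7 had adjusted p between 0.0691 (Tnfrsf13c) and 0.204 (Cr2). Blocking on the named sample, which pairs the segments of a genotype, raised the count to 7 of 9 and that over all genes to 460. Pax5 (adjusted p just above 0.05) and Cr2 (adjusted p = 0.0784) did not pass in the blocked fit. The count also hung on WT proximal library 3, without which 8 of 9 members passed, while edgeR called 0 of 9 and DESeq2 5 of 9.

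The 9 genes varied together from library to library. Over the 12 libraries the correlation of their log2 values ran from 0.947 to 0.992 over 36 pairs, with a median of 0.982, and these points share 4 groups that differ strongly. Of the deviations from the group means alone, the correlations ran from 0.709 to 0.963. In the WT distal group library 2 was highest, library 3 next and library 1 lowest for 9 of 9 members. In the cKO proximal group library 2 was highest for 9 of 9, and in the cKO distal group library 3 was highest for 8 of 9, with Tnfrsf13c highest in library 1. Scaled to a common library total (CPM), reads of the 9 genes summed to 548, 1452 and 872 CPM in WT distal libraries 1, 2 and 3, and 40.5, 35.7 and 189 in the WT proximal ones. They summed to 12.3, 22.9 and 13.5 CPM in the cKO proximal libraries and 14.5, 9.75 and 29.3 in the cKO distal ones.

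Levels of different genes were compared per length, as reads per kilobase of exon scaled to library size (RPKM). In WT distal intestine the receptor chains led, Cd79a at 136 ± 65.3 RPKM (SD, n = 3) and Cd79b at 96.4 ± 49.2. Pou2af1 followed at 53.5 ± 16.7, Tnfrsf13c at 30.9 ± 12.5 and Ms4a1 at 22.1 ± 10.1. Below them came Blk at 18.9 ± 9.04, Fcer2a at 17.4 ± 12.1, Pax5 at 13.1 ± 6.17 and Cr2 at 7.89 ± 6.12. Every pair of neighbours in this order overlapped across libraries. Within libraries the order of neighbours held in 3 of 3, except Blk over Fcer2a in 1 of 3 and Fcer2a over Pax5 in 2 of 3. Lengths are of all annotated exons of a gene, so genes with long exons that are little used read low.

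Set against Cd79a in the same library, the members did not keep quite the same proportions, which is described here without a test. Reads of Cd79b were 63.8% to 72.5% of those of Cd79a in the WT distal and 73.3% to 131.5% in the WT proximal libraries. They were 129% to 194% in the cKO proximal and 82.2% to 96.7% in the cKO distal ones. The WT proximal range overlapped both cKO ranges. The cKO proximal shares rested on 33 to 54 reads of Cd79a. Fcer2a was at 16.0% to 31.1% of Cd79a in WT distal and 7.5% to 14.8% in cKO distal libraries, the latter on 3 to 12 reads. In the proximal segment it was at 27.9% to 33.5% in WT and 21.2% to 51.9% in cKO libraries, which overlapped. Pou2af1 was at 108% of Cd79a in WT distal library 1, against 62.9% and 56.4% in libraries 2 and 3.

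Among 12013 genes compared over the 12 libraries, those most like the mean profile of the 9 members included Cxcr5 (r = 0.994), Fcmr (r = 0.994) and Btla (r = 0.993). Haao (r = 0.992), Mef2c (r = 0.991), H2-Eb2 (r = 0.991) and Fmnl3 (r = 0.991) came next. The points share the same 4 groups and libraries, so a high value is set largely by the group means.

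Other genes of B cell function were lower in the cKO distal segment as well. Of 22 genes of receptor signalling and its coreceptors, 19 fell there and 1 rose, with a median log2 difference of -2.25. Of all genes, 25% passed there and 11.7% fell. Cd22, an inhibitory coreceptor, fell by 5.39 (adjusted p = 4.09e-05), and Btk, the kinase that relays the receptor signal, fell by 3.62 (adjusted p = 2.04e-05). Prkcb, a kinase downstream of Btk, fell by 3.29 (adjusted p = 2.81e-05) and Inpp5d, a phosphatase that dampens the signal, fell by 2.74 (adjusted p = 4.75e-05). The gene that rose was Cd81, a tetraspanin made in many cell types, at 1.60 (adjusted p = 0.000114), named after its value was seen. In the proximal segment 11 of the 22 fell and 2 rose, where 8.26% of all genes passed and 4.05% fell.

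Of 12 B lineage transcription factors 10 fell in the distal segment, with a median of -2.95, and 4 fell in the proximal segment. Of all genes, 11.7% fell distally and 4.05% proximally. Spib, an Ets factor of B cells that M cells also make, fell by 3.54 distally (adjusted p = 4.49e-06) and fell by 1.54 proximally (adjusted p = 0.00297), and its interaction of -2.00 passed (adjusted p = 0.0278). The interaction passed for 4 of the 12 factors, where 0.576% of all genes passed, and for 0 without both cKO libraries numbered 1. Mef2c, a factor of B cell activation, fell by 5.53 (adjusted p = 4.51e-05). Pou2f2, the octamer-binding partner of the Pou2af1 product, fell by 4.59 (adjusted p = 2.22e-05). Ikzf1, a lymphoid zinc finger factor, fell by 3.42 (adjusted p = 4.09e-05). Of 19 other surface genes of mature B cells 19 fell distally, with a median of -4.56, and 5 proximally. Vpreb3 (-5.60), Btla (-5.45), Cd180 (-4.56) and Cd37 (-3.86) had the smallest p of these. Without WT proximal library 3, the proximal counts were 2 of 22 for receptor signalling, 1 of 12 for the transcription factors and 0 of 19 for the surface genes.

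In the BAFF and APRIL system, 1 of 4 genes fell and 1 rose in the distal segment, where 25% of all genes passed. Tnfrsf13b, which encodes the receptor TACI, fell by 3.94 (adjusted p = 5.74e-05), as did the BAFF receptor above. Tnfsf13, which encodes the ligand APRIL, rose by 1.06 (adjusted p = 0.0145), a call that was lost with the mitochondrial covariate and without both cKO libraries numbered 1. Tnfsf13b, which encodes BAFF itself, differed by -0.41 (adjusted p = 0.420), and the plasma cell receptor gene Tnfrsf17 by -1.36 (adjusted p = 0.124). In the proximal segment 0 of these 4 passed by limma, and 0 of the 3 that edgeR and DESeq2 each tested, and limma gave 1 of them an unadjusted p under 0.05.

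Genes of the germinal centre, where activated B cells mutate their antigen receptors, included the largest differences. Of 9, 8 fell in the distal segment, with a median of -4.59, and 1 in the proximal segment, where 11.7% and 4.05% of all genes fell. Which cells made their RNA was not tested. Rgs13, 1 of the list, read 705, 349 and 238 in WT distal and 822, 359 and 512 in WT proximal libraries 1, 2 and 3. Mef2b, a transcription factor of germinal centre B cells, stood at 477, 601 and 367 in WT distal libraries 1, 2 and 3, and at 6.36, 1.66 and 7.44 in the cKO distal ones. It fell by 6.43 (SE 0.58, adjusted p = 1.40e-05), and its interaction of -4.64 passed (adjusted p = 0.0271). The distal differences of Nuggc (-6.86) and Gcsam (-5.96) also passed. In cKO distal libraries 1, 2 and 3 Nuggc read 1.06, 0.83 and 3.19, and Gcsam 7.42, 1.66 and 4.25. These values, like those of Mef2b, rested on few reads, and the added count limits the size of such changes. The interaction passed for 6 of the 9 genes, where 0.576% of all genes passed and 0.402% passed with lower values. That count was 4 with the mitochondrial covariate, 3 with edgeR and 0 without both cKO libraries numbered 1. Among the WT distal libraries these genes did not follow the order of the identity genes. The 8 that fell were lowest in library 3 in 8 of 8, and library 2 read a median of 1.09 times library 1, against 2.76 times for the identity genes.

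**Figure D3:**
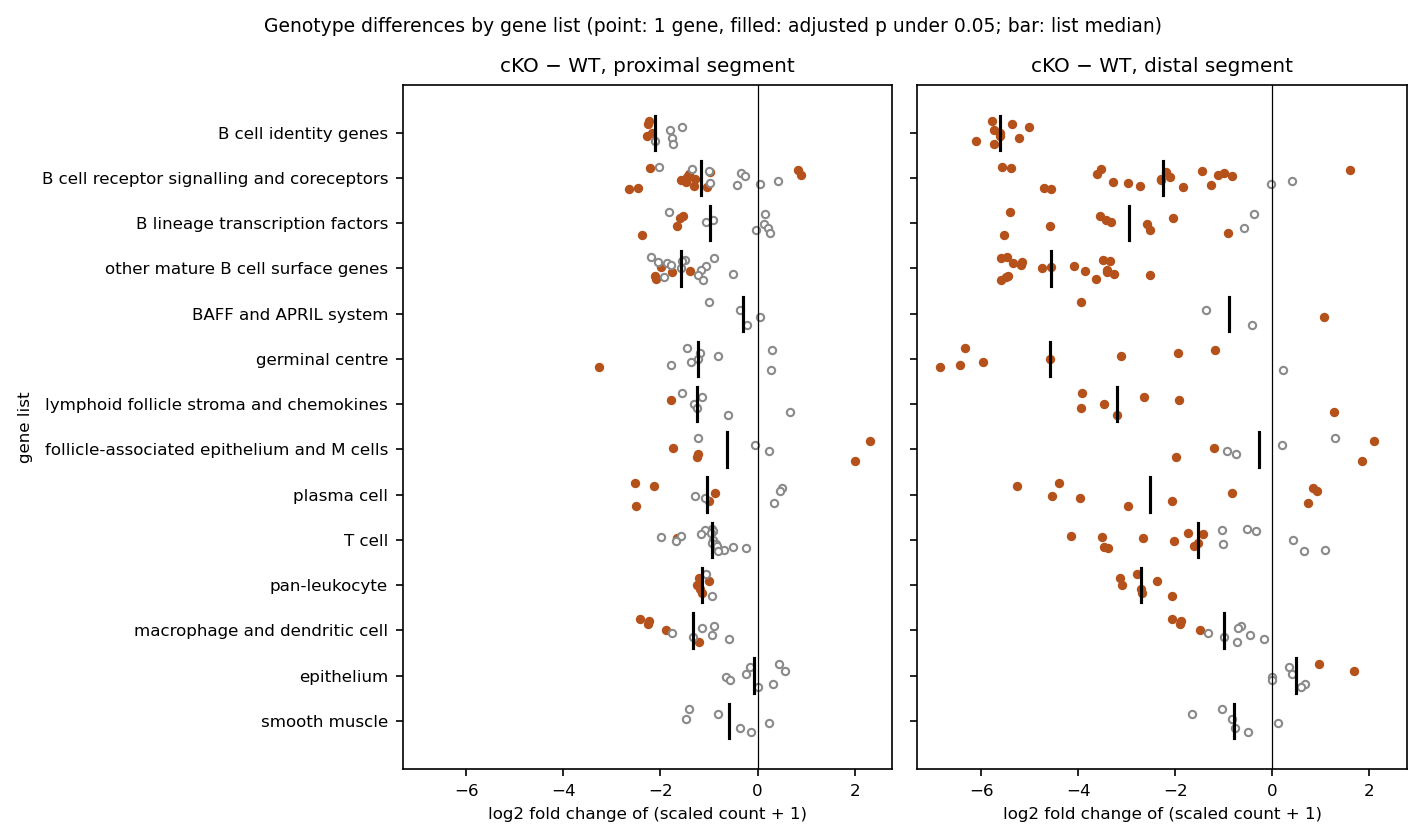
Log2 fold changes, cKO minus WT, of the genes of 14 lists in the proximal (left) and distal (right) segment. Each point is 1 gene, filled where the adjusted p was under 0.05, and each bar is the list's median. The B cell identity genes have a median of -2.12 in the proximal and -5.62 in the distal segment. The median of the epithelium list is -0.07 in the proximal and 0.49 in the distal segment.

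Markers of the structures and cells around B cells are given beside these values, and their part in the result was not tested. Of 7 measured genes of lymphoid follicle stroma and chemokines (10 listed), 6 fell in the cKO distal segment and 1 rose. Of all genes, 11.7% fell there. With the mitochondrial covariate 3 of the 7 fell and 1 rose. The lymphotoxin genes Ltb (-3.47, adjusted p = 4.94e-05) and Lta (-3.95, adjusted p = 0.00133) and the cytokine gene Tnfsf11 (-3.21, adjusted p = 0.00115) fell. They are not defining markers of stroma, and which cells made their RNA cannot be told in bulk tissue. Ltbr, the lymphotoxin receptor, rose by 1.26 (adjusted p = 0.00133). The B cell chemokine gene Cxcl13, a defining marker of the list, stood at 93.8 to 211 in the WT distal and at 3.18 to 34.0 in the cKO distal libraries. Madcam1 was at 0 reads in 3 of 3 cKO proximal and 2 of 3 cKO distal libraries, and in 0 of 3 WT distal ones. The distal differences of Cxcl13 (-3.93, adjusted p = 0.0034) and Madcam1 (-2.64, adjusted p = 0.0029) passed. Of 8 genes of follicle-associated epithelium and M cells, 2 fell and 2 rose distally, where 25% of all genes passed in either direction. Those that fell were Marcksl1 (-1.99, adjusted p = 0.000123) and Tnfaip2 (-1.20, adjusted p = 0.0242), and Pglyrp1 rose by 1.84 (adjusted p = 8.08e-05). With the mitochondrial covariate, and without both cKO libraries numbered 1, 1 of the 8 fell and 2 rose. Gp2, the M cell receptor, differed by 1.284 (adjusted p = 0.115), and Ccl20, which draws B cells to follicles, rose by 2.10 (adjusted p = 0.00160).

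Plasma cell genes split, 7 of 10 falling and 3 rising in the distal segment, where 25% of all genes passed and 11.7% fell. Jchain, the joining chain of secreted IgA, fell by 4.39 (adjusted p = 4.38e-05). Mzb1 (-5.26), Irf4 (-4.54) and Derl3 (-3.97) fell as well, with adjusted p between 8.68e-06 and 0.000102. Those that rose were Xbp1 (0.83, adjusted p = 0.0138), Sdc1 (0.92, adjusted p = 0.0247) and Txndc5. Xbp1 and Sdc1 are defining markers of plasma cells here, as are Jchain and Mzb1, which fell. Secretory and epithelial cells also make RNA of the 3 that rose, and which cells made it here was not tested. Of 7 pan-leukocyte genes 7 fell distally, with a median of -2.71, and their summed level was 14752 to 23739 scaled counts in WT distal and 2048 to 3136 in cKO distal libraries. Of 17 T cell genes 10 fell distally and 1 proximally, where 11.7% and 4.05% of all genes fell. Their summed level was 2635 to 5721 in WT distal and 2093 to 4523 in cKO distal libraries, so these ranges overlapped. The granzyme genes Gzma and Gzmb were set aside after their values were seen. The other 15 genes summed to 1851 to 4157 in WT distal and 969 to 1468 in cKO distal libraries. Because that choice was made on these same values, the lack of overlap without the granzyme genes is a description and no test. Of the defining T cell markers, Cd3e, which every T cell makes, differed by -0.52 (adjusted p = 0.344). Cd3d (-1.04, adjusted p = 0.129), Cd3g (-0.34, adjusted p = 0.544) and Cd8a (0.43, adjusted p = 0.485) did not pass either. Trac (-1.74, adjusted p = 0.0095) and Cd4 (-2.66, adjusted p = 0.0013) fell. Cd28 (-3.48), Cd2 (-4.14), Icos (-3.39) and Cd5 (-3.52) were the T cell genes with the smallest p.

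Of 11 macrophage and dendritic cell genes 4 fell distally and 5 proximally, where 11.7% and 4.05% of all genes fell. Of the defining macrophage markers, C1qa (-2.06 distally and -2.43 proximally), C1qb and Csf1r fell in both segments. Adgre1 did not pass distally (-0.72, adjusted p = 0.267) or proximally (-1.15, adjusted p = 0.129). Distally, where 25% of all genes passed in either direction, epithelial genes showed 2 of 8 higher and 0 lower. Cdh1 rose by 1.69 (adjusted p = 0.00246) and Epcam by 0.97 (adjusted p = 0.0459). The 8 epithelial genes summed to 144356 to 236152 in WT distal and 201899 to 332575 in cKO distal libraries. In the fit that adjusts for mitochondrial reads, 0 of the 8 epithelial and 0 of the 10 plasma cell genes rose distally, and 4 of the 17 T cell genes fell. Of 6 smooth muscle genes 0 passed in either segment by limma, with 2 at an unadjusted p under 0.05 proximally and 1 distally. For these genes edgeR called 1 proximally and 0 distally, and DESeq2 called 2 and 0.

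**Figure D4:**
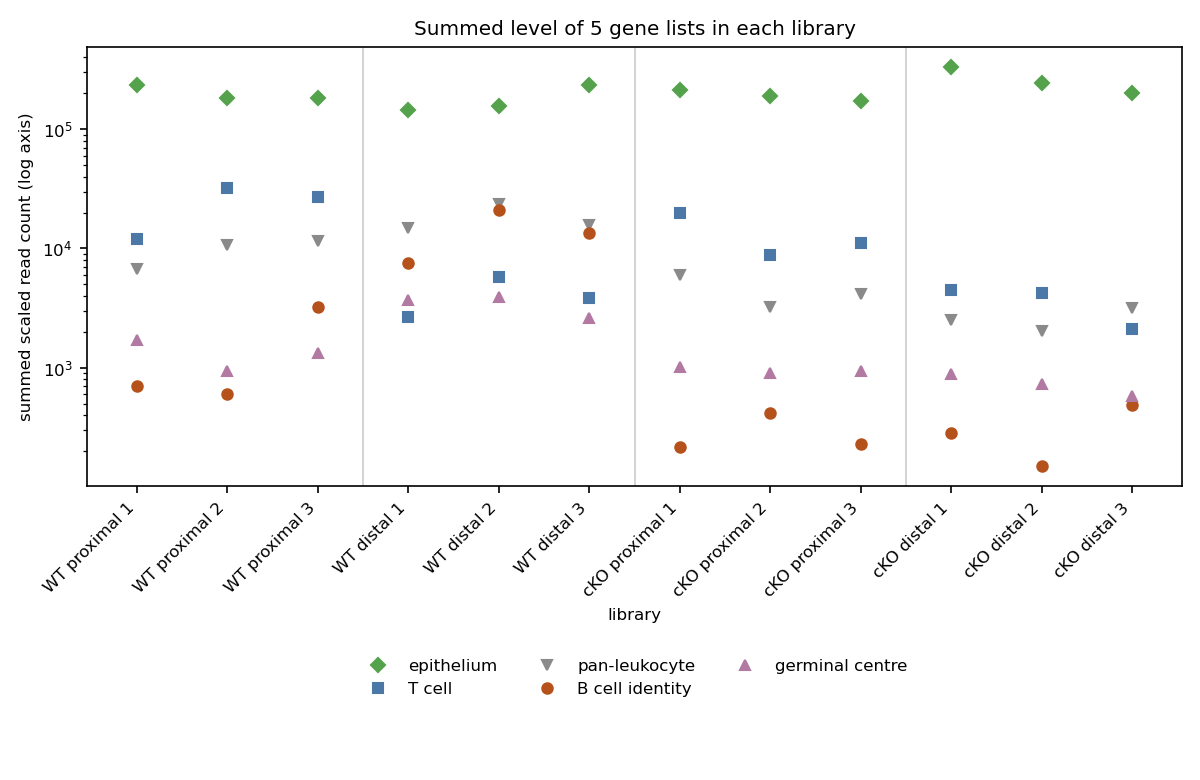
Summed scaled read counts (log axis) of 5 gene lists in each of the 12 libraries, 1 point per list and library. The B cell identity genes sum to between 7518 and 20852 in the WT distal libraries and between 150.2 and 484 in the 6 cKO libraries, while the epithelial sum stays between 144356 and 332575.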

How the data were processed

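RNA-seq of 12 libraries was analysed, 3 in each of 4 groups named by the labels. Per the labels' protocols, Trizol was used for extraction and a NuGEN Ovation kit for the libraries. Per the submitters' processing notes, the tools were STAR, of unstated version, and DESeq2 1.28.1, with mm10. The authors deposited scaled values, a signal in which all 206100 values were whole multiples of a step per library, within 0.001 steps. They were read as read counts plus 1 over a size factor. That gave back whole reads, 11242024 to 17722756 per library, and 0 columns were left without a sample. How genes were filtered for the table is not given in the sources used here.

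The main test was limma 3.58.1 (R 4.3.3, trend) on log2(value + 1), fitted once to all 12 libraries with a mean for each group. P-values were Benjamini-Hochberg adjusted over 17175 genes, with a threshold of 0.05. Requiring a value of 1 or more in 3 libraries removed no gene, so 9 of 9 members were tested. The 5 comparisons share libraries. Alternatives were edgeR 4.0.16 and DESeq2 1.42.0 on the recovered reads, other pseudocounts, filters and scaling, replicate blocks, a covariate, and leaving out libraries. Of these, only the limma fit was run on simulated counts with known changes, and only for the distal genotype comparison. The other fits and comparisons were not tested in that way. The members, the gene lists, the tests and the rule for named genes were chosen with earlier results of these data known. By that rule, the text names the members, up to 4 genes of each list with the smallest p in the distal genotype comparison, the 8 genes most like the members' mean profile, and Bmpr1a. Defining markers of cell types are named beside them. A few genes that the rule would name are not reported here.

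The replicate numbers were taken to pair the proximal and distal samples of a genotype, whose names in the labels share the number. Same-numbered samples deviated together from their group means (r = 0.314, 0.173 and 0.308 in WT, 0.158, 0.215 and 0.323 in cKO). Differently numbered samples of a genotype were not correlated, so the pairing was not tested against them. Across genotypes same-numbered samples did not deviate together in this way (r from -0.148 to 0.0487), and the numbers were not taken to pair them. The authors' deposited log2 fold change, its standard error, the score (Wald statistic) and the p-value and adjusted p-value of each gene belong to a contrast that arithmetic shows to be cKO proximal over WT distal (median absolute difference 0.00169, next pair 0.395). Gene positions and exon lengths came from GENCODE M21, and promoters from RefSeq.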

Additional observations from a re-analysis of the deposited data

Results flagged for a closer look

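The genotype effect on Blk differed between the segments by the test of the interaction, at -3.998 on the log2 scale (SE 0.81, adjusted p = 0.0442). The cKO differed from the WT by -5.74 in the distal and -1.74 in the proximal segment, and in each segment every cKO library was below every WT library. Of 24 alternatives 11 kept the interaction past the threshold and 13 did not, among the latter edgeR, the mitochondrial covariate and the fit without both cKO libraries numbered 1. With the named sample as a block the adjusted p was 0.0157.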

How the results depend on the processing

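In each of 18 alternatives 9 of 9 members were called lower in the distal segment of the cKO, and in each of 19 alternatives 0 of 9 were called between segments in the cKO. In the WT 9 of 9 were called higher distally, or 8 without WT distal library 2. No result changed direction past the threshold. The proximal count of 4 became 8 with DESeq2, 1 with only the groups compared in the fit, 1 without a trend, 0 with the mitochondrial share as a covariate and 0 without both cKO libraries numbered 1. Leaving out single libraries gave 0 to 6: 0 without WT proximal 3 or cKO proximal 3, 1 without cKO proximal 1 and 6 without WT proximal 1. The interaction count of 1 became 3 with a pseudocount of 5, 0 with a mean value of at least 10, 0 with edgeR, 5 with DESeq2, 0 with the covariate, 0 without a trend and 0 without both cKO libraries numbered 1. Leaving out single libraries gave 0 to 8. The cause of these shifts was not tested.

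Blocking on the named sample gave 7 for the interaction, and 460 over all genes against 99 without the block. A plain replicate block left the members' count at 1. Neither block changed a member's call in the other comparisons it was run for. The other gene lists were not run with a block.

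Over all genes, the distal count of 4297 became 1392 with the covariate and 2160 without both cKO libraries numbered 1, and the proximal count of 1418 became 405 and 766. DESeq2 called 2322 proximally. Single libraries moved the proximal count to 587 (without WT proximal 2), 694 (WT proximal 3), 810, 580 and 687 (cKO proximal 1, 2 and 3). They moved the distal count to 2672 (without WT distal 2) and 2466 (without cKO distal 1). Between segments the count of all genes ranged from 2741 (without WT distal library 2) to 4935 in the WT and from 862 (without both cKO libraries numbered 1) to 2785 in the cKO. In the proximal segment DESeq2 called 13 of the 19 surface genes, 9 of the 17 T cell genes and 5 of the 9 germinal centre genes lower. Over all genes the interaction count of 99 ranged from 2 without both cKO libraries numbered 1 to 595 with DESeq2. TMM scaling moved the proximal median of all genes from 0.08 to -0.03, and that of the members from -2.12 to -2.23. Member values in the cKO rested on as few as 3 reads, which limits the ratios between members there.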

Other observations

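In the authors' deposited table, the log2 fold changes of the 9 B cell identity genes ran from -6.00 (Cd79a) to -4.94 (Cd79b). That contrast sets cKO proximal against WT distal libraries, so genotype and segment change together in it.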
